A study of Mus musculus with 16 samples.

Results

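Kinesins and cytoplasmic dyneins are the motor proteins that walk along microtubules. The genes described here are the 50 of 14498 in the count matrix whose symbols start with Kif and a number or c, Klc and a number, or Dync. By their textbook roles they were placed in 7 groups: 13 mitotic motors, 16 kinesins of axonal and other membrane transport (called axonal kinesins below), 4 kinesin light chains, 5 subunits of cytoplasmic dynein 1, 7 motors of cilia and centrioles, 4 other kinesins, and Kif1bp, a kinesin binding protein that the symbol rule takes in but that is not a motor. RNA was measured in single cells of the forebrain of wild type CD1 mouse embryos at embryonic day 15.5, with the SureCell droplet kit of Illumina and Bio-Rad. The 16 samples share strain, genotype and tissue, and nothing in the labels separates them by treatment or by animal. Their 5777 cells stand in 1 matrix with no map from cells to samples, so the comparisons below are between cell classes, there is no replicate, and no value has a test.

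Kinesins mostly carry cargo toward the plus ends of microtubules, which in axons point away from the cell body, and cytoplasmic dynein carries cargo back toward the minus ends. Dividing cells use a separate set of kinesins to build the spindle, move chromosomes and complete cytokinesis, and this set is transcribed mainly in late cell cycle. In the embryonic cortex, radial glia divide at the ventricle and give intermediate progenitors, whose daughters migrate outward and become excitatory neurons. Progenitors of the ganglionic eminences give interneurons and striatal neurons.

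The cells had a median of 3258 UMIs (unique molecular identifiers, each counting 1 captured RNA molecule; range 1111 to 17398), and motor genes held 115714 UMIs in all. Cells were grouped into 20 clusters from genes among which no motor gene stood, and 17 clusters were named from marker genes, with "-like" meaning resemblance by those markers. Of 14 radial glia markers, 13 were raised in the larger radial glia-like cluster and 10 in a cluster of 140 cells of low depth. All 8 ganglionic eminence progenitor markers and all 9 intermediate progenitor markers were raised in their classes, as were 8 of 9 deep layer and 5 of 9 upper layer markers in theirs. The class sizes were 752 radial glia-like, 468 ganglionic eminence progenitor-like, 468 intermediate progenitor-like, 917 migrating excitatory neuron-like, 1061 excitatory neuron-like (719 deep layer and 342 upper layer), 741 interneuron-like, 266 striatal neuron-like, 151 basal forebrain neuron-like and 71 Cajal-Retzius cell-like cells. Another 806 cells in 3 clusters stayed unnamed. Cells fall into a first run of 3651 and a second run of 2122 in the order of the matrix, and values within each run are given for selected results; what the runs are is not given in the labels. Only 33 of the ganglionic eminence progenitor-like cells and 64 of the upper layer neuron-like cells come from the smaller side of that split (second run and first run, respectively). Cells are numbered in 1 series without barcodes, so barcodes shared between libraries could not be counted, and doublets were kept.

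The promoters of the mitotic motors are shown first because most of them share TTTGAA, which was found in 1 of 13 axonal kinesin promoters. TTTGAA, read on either strand, is the core of the cell cycle genes homology region, an element known from promoters of genes of G2 and M phase, and CCAAT is the box bound by NF-Y. RefSeq promoter windows of 300 bases on build GRCm38.p6 were matched for 39 of the 50 genes (44 windows). In the stretches printed here, from base -120 to base 30 around the annotated start, 5′ to 3′ on the strand of the gene, capitals mark TTTGAA or its reverse complement TTCAAA and CCAAT or its reverse complement ATTGG. Kif11 (chr19:37376262-37376411, plus strand), Kif15 (chr9:122950961-122951110, plus), Kif18b (chr11:102925095-102925244, minus), Kif22 (chr7:127042391-127042540, minus), Kif23 (chr9:61946770-61946919, minus) and Kifc1 (chr17:33890604-33890753, minus) are mitotic motors. Kif5c (chr2:49619166-49619315, plus), an axonal kinesin, and Dync1i1 (chr6:5725519-5725668, plus), a dynein subunit, hold neither motif in this stretch. The 8 were chosen after their values and motifs were seen.
Kif11: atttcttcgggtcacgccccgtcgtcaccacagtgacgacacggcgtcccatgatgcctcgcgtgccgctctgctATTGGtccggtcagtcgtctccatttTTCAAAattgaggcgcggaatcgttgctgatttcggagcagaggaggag
Kif15: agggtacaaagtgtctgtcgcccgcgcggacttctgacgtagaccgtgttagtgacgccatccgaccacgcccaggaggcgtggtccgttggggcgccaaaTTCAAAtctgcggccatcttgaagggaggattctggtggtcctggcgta
Kif18b: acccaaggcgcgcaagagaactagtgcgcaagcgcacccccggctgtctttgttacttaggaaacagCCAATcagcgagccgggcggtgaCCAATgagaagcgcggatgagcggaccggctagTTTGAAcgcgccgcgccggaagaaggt
Kif22: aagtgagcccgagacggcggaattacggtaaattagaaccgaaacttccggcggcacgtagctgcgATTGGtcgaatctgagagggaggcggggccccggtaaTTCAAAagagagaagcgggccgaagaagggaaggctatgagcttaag
Kif23: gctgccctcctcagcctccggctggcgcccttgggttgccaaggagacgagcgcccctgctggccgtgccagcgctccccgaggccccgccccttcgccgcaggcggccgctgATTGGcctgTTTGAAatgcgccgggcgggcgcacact
Kifc1: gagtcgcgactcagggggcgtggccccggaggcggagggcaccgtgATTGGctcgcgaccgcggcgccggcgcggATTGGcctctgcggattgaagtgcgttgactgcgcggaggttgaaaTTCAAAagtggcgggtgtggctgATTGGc
Kif5c: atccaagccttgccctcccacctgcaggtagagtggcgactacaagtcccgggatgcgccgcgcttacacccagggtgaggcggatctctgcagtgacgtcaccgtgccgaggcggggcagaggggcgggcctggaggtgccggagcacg
Dync1i1: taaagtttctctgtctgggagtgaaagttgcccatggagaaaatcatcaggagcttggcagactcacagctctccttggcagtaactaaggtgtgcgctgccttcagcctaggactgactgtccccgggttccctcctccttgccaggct

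In the 300-base windows, TTTGAA was found in 11 of 12 mitotic motor promoters (91.7%), against 17.9% of all 32851 promoters of the table and 11.7% of the 13936 promoters of genes in the matrix. It lay within 30 bases of the start in 9 of the 12 (75%), against 3.14% of all promoters. Kif14 and Kif2c held it farther out, with first bases at -228 and -103, Kif18a held none, and Kif20a has no entry. CCAAT was found in 8 of the 12 (66.7%) against 37.4% of all promoters, and both motifs in 8 (66.7%) against 6.95%. Among 13 promoters of axonal kinesins, 1 held TTTGAA (Kif1a, first base at -44) and 4 CCAAT (30.8%, near the share of all promoters), and among 5 of cytoplasmic dynein 1 the count was 0 for both motifs. CCAAT was also found in 4 of 7 cilium and centriole motor promoters and 2 of 3 light chain promoters. TTTGAA was found in 1 of those 7 (14.3%), that of Kif27, with first bases at -191, -89 and -73. Kif26b, outside these groups, held TTTGAA at -9. Neither motif contains the other. Kifc1 and Kifc5b are near-identical copies, so their promoters are not separate examples and reads between them may have been split by the counting. A match describes letters and does not show that a factor binds there.

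The mitotic motors were high in radial glia-like and ganglionic eminence progenitor-like cells and low in intermediate progenitor-like cells and every named neuron class. Summed over the 13 genes, they took 1109 UMIs per 1000000 UMIs of the class (the unit CPM below) in radial glia-like cells and 1383 in ganglionic eminence progenitor-like cells. The sums were 77.4 CPM in intermediate progenitor-like cells, 58.9 in migrating excitatory neuron-like cells, 39.5 in excitatory neuron-like cells and 93.8 in interneuron-like cells, and no neuron class passed 97.3 CPM, the value of striatal neuron-like cells. Against radial glia-like cells, excitatory neuron-like cells had a sum 28.1-fold lower (exact 95% interval 24.3 to 32.7, which like every interval here covers counting error only), and 22.8-fold and 31.8-fold lower in the first and second run. Against ganglionic eminence progenitor-like cells, interneuron-like cells had a sum 14.7-fold lower (12.6 to 17.3; 13.2 and 14.8 in the runs). The axonal kinesins ran the other way, with 1892 and 1550 CPM in the same progenitor classes, 3261 in excitatory neuron-like cells and 2976 in interneuron-like cells.

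**Figure D1:**
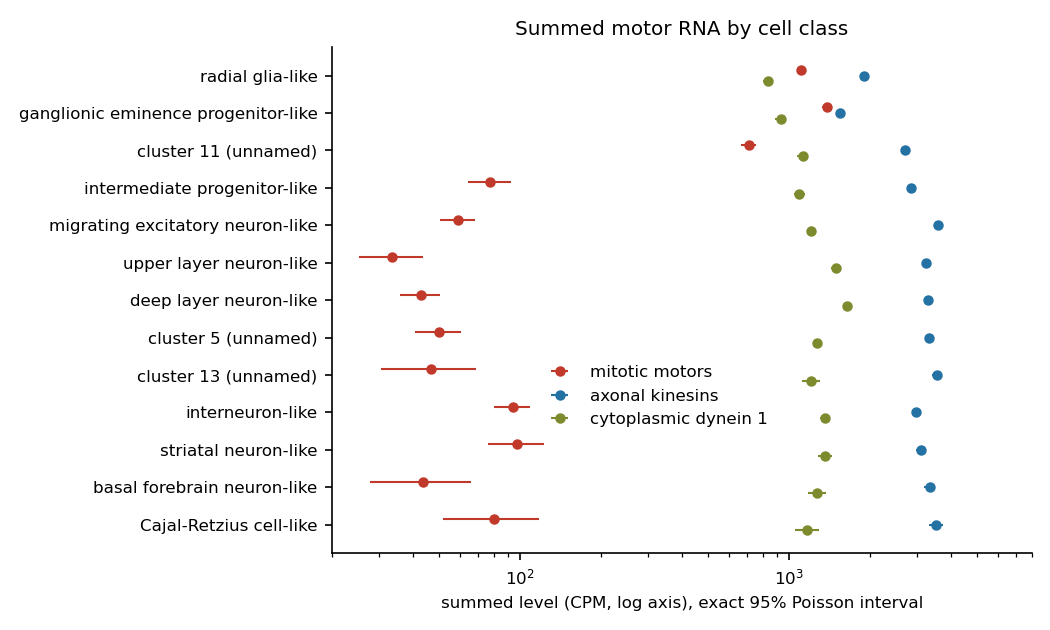
Summed level of the mitotic motors, axonal kinesins and cytoplasmic dynein 1 in each cell class, in CPM on a log axis, with exact 95% Poisson intervals. The mitotic sum is 1109 and 1383 in the radial glia-like and ganglionic eminence progenitor-like classes and under 100 in the neuron classes, while the axonal sum is lowest of the neural classes in those progenitors.

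Each mitotic motor followed this pattern. All 13 were at least 1.5-fold lower in excitatory neuron-like than in radial glia-like cells, with a median log2 ratio of -4.97; over all 10236 genes with at least 50 UMIs in these classes, 31.5% were that much lower and 24.1% that much higher, with a median of -0.15. Kif11, the tetrameric kinesin that pushes the spindle poles apart, stood at 301 CPM in ganglionic eminence progenitor-like cells and 238 in radial glia-like ones. It stood at 11.1 in intermediate progenitor-like, 8.55 in migrating, 6.07 in upper layer, 3.85 in deep layer, 9.76 in interneuron-like and 20.9 in striatal neuron-like cells. Radial glia-like and ganglionic eminence progenitor-like cells stood above all other named neural classes, intermediate progenitor-like cells included, and excitatory neuron-like cells were 51.6-fold lower (33.8 to 82.8) than radial glia-like cells. In the runs Kif11 was 30.3-fold and 96.4-fold lower.

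Kif2c, which removes tubulin from microtubule ends at kinetochores, stood at 59.2 and 101 CPM in the radial glia-like and ganglionic eminence progenitor-like classes and at 1.05 and 3.8 in excitatory neuron-like and interneuron-like cells. It was 56.4-fold lower in excitatory neuron-like cells (23.7 to 176), on 5 UMIs there, and its interval overlaps that of Kif11, so their order is not settled. It was 21.8-fold lower in the first run and, with 0 UMIs in excitatory neuron-like cells, at least 58.7-fold lower in the second. Kif15, which shares work with Kif11 at the spindle, went from 112 to 2.31 CPM (48.5-fold lower; 32.8 and 70.7 in the runs). Kif23, the motor of the central spindle and midbody, went from 148 to 4.83 CPM (30.8-fold lower), and Kif20a, which works in cytokinesis, from 85.7 to 2.10 (40.8-fold lower; 29.9 and 52.1 in the runs). Kif22, a chromosome-binding motor, went from 102 to 2.52 CPM (40.4-fold lower; 25.4 and 71.1 in the runs). The smallest difference of the 13 was that of Kif20b, from 52.4 to 7.35 CPM (7.14-fold lower, 4.91 to 10.6). The other 6 lay between 15.3-fold lower (Kif18a, which limits chromosome movement) and 34.6-fold lower (Kif18b); for the pair Kifc1 and Kifc5b, at 16.9-fold and 18.2-fold lower, the split of reads is uncertain.

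The same contrast in the ventral lineage gave 12 of 12 measured mitotic motors lower in interneuron-like cells (median log2 ratio -3.87; 24.5% of 8666 genes were at least 1.5-fold lower). Kif11 was 30.8-fold (19.3 to 52.5) and Kif22 30.4-fold lower (14.5 to 76.5). Kifc1 had the smallest at 6.21-fold lower, followed by Kif20b at 6.61 and Kif18b at 7.47. Kifc5b had fewer than 50 UMIs over both classes and was not measured.

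**Figure D2:**
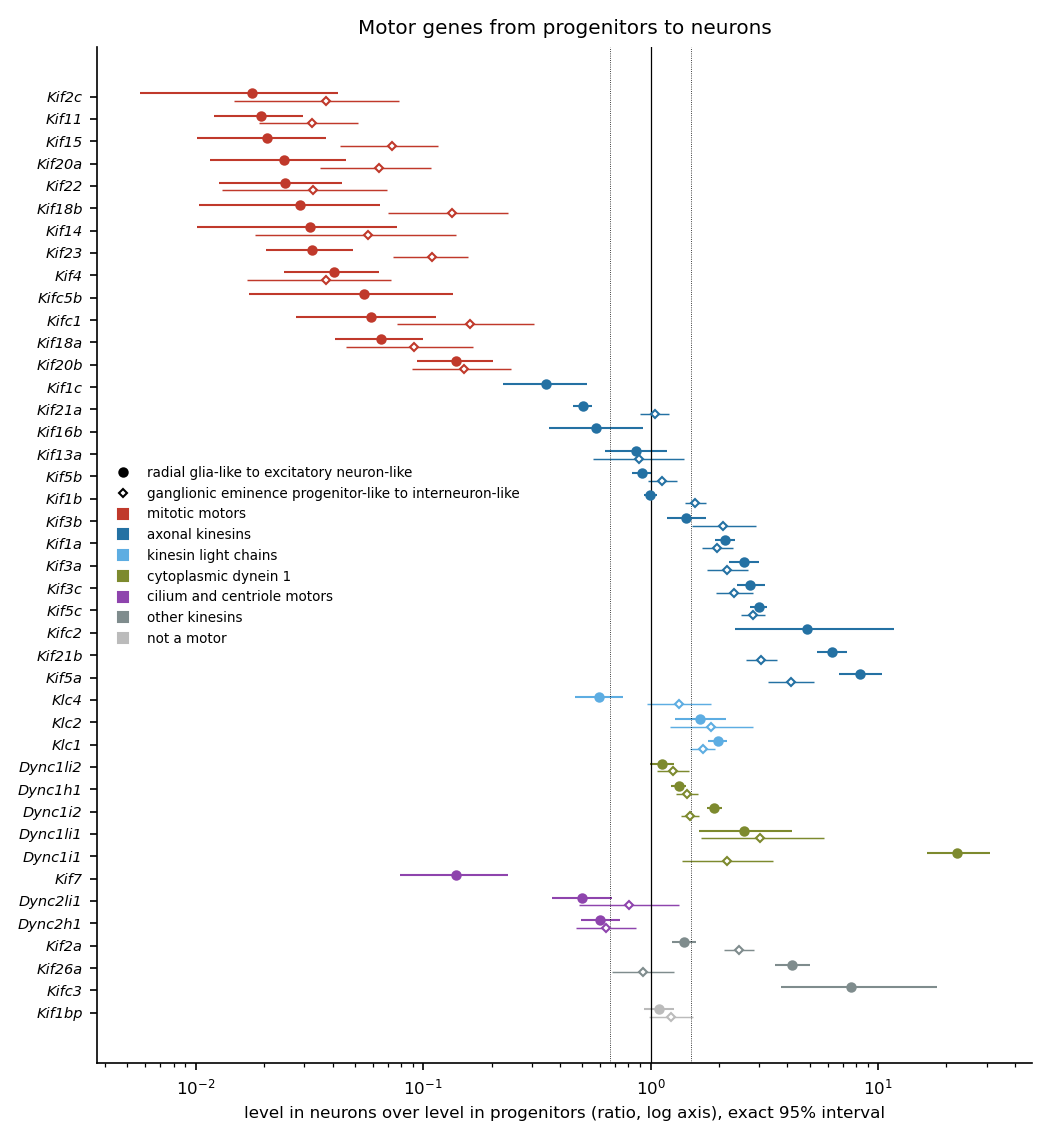
Ratio of each measured motor gene on a log axis, as excitatory neuron-like over radial glia-like cells (circles) and interneuron-like over ganglionic eminence progenitor-like cells (diamonds), with exact 95% intervals and dotted lines at 1.5-fold. All mitotic motors lie left of the lower line in both lineages, and Dync1i1 lies far right in the excitatory lineage (22.3) but at 2.16 in the ventral one.

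Within the progenitors, the mitotic motors differed by cell cycle phase, and no measured axonal kinesin passed the 1.5-fold limit between S and G2/M. To compare cells at 1 depth, 1000 UMIs were drawn from each, and a cell was assigned to G2/M with at least 3 UMIs of 42 G2/M genes, or to S with at least 3 UMIs of 35 S phase genes and fewer of the former; neither list holds a motor gene. These are ranges of a count, not cell types, and free RNA from lysed cells could add to either count. In radial glia-like cells, all 13 mitotic motors were at least 1.5-fold higher in the 472 G2/M cells than in the 181 S cells, against 8.67% of 7915 genes (7.54% were lower), and 0 of 12 measured axonal kinesins passed that limit in either direction. Another 17 radial glia-like cells had no UMI of either list; they held 3 mitotic motor UMIs, 56.8 CPM, and the G2/M cells were 27.4-fold higher (9.37 to 133). Over all motor genes in that comparison, 11 of 36 measured were higher in G2/M (24.7% of 7149 genes) and 8 lower (21.3%), and 13 of the 36 had a class at 0 UMIs, set to the 3-UMI floor. Of 11 measured axonal kinesins, 1 was higher in G2/M (Kif3c, at 0 UMIs in the 17 cells) and 5 lower, among them Kif3b (4.71-fold, 2.42 to 8.42), Kif21b (3.10-fold, 1.45 to 5.90) and Kif21a (1.93-fold, 1.28 to 2.80). The others, Kif1c (2.31-fold) and Kif5a (2.01-fold), had intervals that hold no difference. In the 17 cells, the 13 UMIs of Kif3b stood in 4 cells, the 10 of Kif21b in 4 and the 29 of Kif21a in 13. Of the 17 cells 14 come from the second run, against 166 of the 472 G2/M cells. In ganglionic eminence progenitor-like cells (302 in G2/M, 119 in S) 12 of 12 measured mitotic motors were higher in G2/M than in S, against 11.6% of 6242 genes. There 0 of 10 axonal kinesins passed the limit. There Dync2h1 was 1.71-fold lower in G2/M (10.4% of genes were lower) and Kif1bp 1.62-fold higher.

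Kif20a had the largest step in radial glia-like cells, from 8.15 CPM in S to 123 in G2/M (15.1-fold, 6.37 to 46.8), and Kif2c went from 6.52 to 85.2 CPM (13.1-fold). Kif11 went from 45.6 to 333 CPM (7.31-fold, 5.01 to 11.1), and Kif20b had the smallest step, from 19.6 to 69.5 CPM (3.55-fold). The intervals of Kif20a and Kif20b overlap, and the difference between their steps was not tested. In ganglionic eminence progenitor-like cells Kif2c went from 5.02 to 149 CPM (29.6-fold, 8.07 to 247, on 2 UMIs in S). Kif18b, a motor of astral microtubule ends, had 0 UMIs in S and 84.0 CPM in G2/M, at least 11.2-fold higher when the S cells are set to 3 UMIs.

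The summed mitotic level climbed over bins of rising G2/M RNA. In radial glia-like cells with 0 G2/M UMIs per 1000 it was 91.9 CPM, and it was 246, 577, 1225, 2121 and 2623 CPM in the bins of 1 to 2, 3 to 5, 6 to 10, 11 to 20 and at least 21. The axonal sum over the same bins was 2114, 1945, 1914, 1860, 1765 and 1753 CPM. In ganglionic eminence progenitor-like cells the mitotic sum went from 73.4 to 3112 CPM and the axonal sum from 1700 to 1370. The fall of the axonal share is small beside the climb of the mitotic one, and since CPM shares sum to a fixed total, a gene can lose share without losing RNA.

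**Figure D3:**
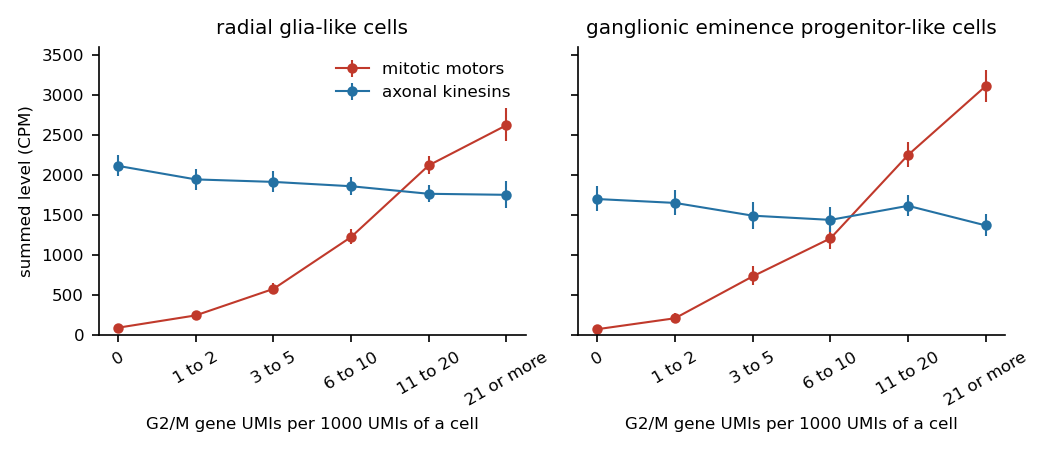
Summed mitotic motors and axonal kinesins, in CPM, over bins of G2/M UMIs per 1000 UMIs in radial glia-like and ganglionic eminence progenitor-like cells, with exact 95% Poisson intervals. The mitotic sum climbs from 91.9 to 2623 and from 73.4 to 3112, while the axonal sum goes from 2114 to 1753 and from 1700 to 1370.

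Counted by cell, 64.1% of radial glia-like cells (Clopper-Pearson 95% interval 60.6 to 67.5; median depth 3306.5 UMIs) had a UMI of a mitotic motor, and 46.5% after thinning to 1000 UMIs. The 472 radial glia-like cells in G2/M, 62.8% of the class, held 2977 of its 3130 mitotic motor UMIs. Neurons do not divide, so excitatory neuron-like cells were taken as the reference: 13.4% had such a UMI (11.4 to 15.6; median depth 4405), and 3.77% after thinning. Interneuron-like cells were at 12.7% (median depth 2280) and 5.13% thinned, migrating excitatory neuron-like cells at 14% and 5.13%, and intermediate progenitor-like cells at 15.6% and 6.84%. Before thinning, these lay near the share in excitatory neuron-like cells. After thinning, each was above the 3.77% (2.71 to 5.10) of those cells, most of all intermediate progenitor-like cells (4.72 to 9.52), and the intervals overlap. In intermediate progenitor-like cells 19 cells in G2/M held 28 of 118 mitotic UMIs. In interneuron-like cells 40 cells in G2/M (5.40%) held 74 of 173 mitotic UMIs, whereas in excitatory neuron-like cells 5 cells held 4 of 188. In the excitatory neuron-like class 10 cells had at least 3 mitotic motor UMIs and held 32 of the 188. The source of these UMIs was not tested, and doublets were kept. The ganglionic eminence progenitor markers summed to 2004 CPM in interneuron-like cells, with 1 of 8 genes at 0, against 2831 in the progenitors themselves. This marker sum was not split by gene or by cell, so it does not measure how many progenitors stand in the class. The part of any progenitors in the mitotic sum was not tested.

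The drop between radial glia-like and intermediate progenitor-like cells depends on which cells carry the latter name. The class as named was 14.3-fold lower in summed mitotic motors (11.9 to 17.4), and all 13 genes were lower, against 19.4% of 9221 genes. Kif20a went from 85.7 to 1.97 CPM (43.6-fold lower, 14.7 to 213), and Kif14, which acts at the midbody, from 33.0 to 0.656 CPM on 1 UMI. Kif20b again had the smallest ratio, 6.15-fold lower. An unnamed cluster of 225 cells with a median of 5514 UMIs held a mitotic sum of 707 CPM and had intermediate progenitor as its best matching class, with 2807 CPM over the 9 intermediate progenitor markers and 4752 over the radial glia markers. Of its cells 50.2% were among the 289 cells with the highest doublet scores, against at most 5.63% in any named class. When each cluster took the name of its best matching class, which made that cluster intermediate progenitor-like and added the other 2 unnamed clusters to the excitatory neuron-like class, the summed log2 ratio was -1.58 in place of -3.84, and the step from intermediate progenitor-like to migrating cells became -2.65 in place of -0.39. So the place in the lineage where mitotic motor RNA drops is not fixed by these cells, while the log2 ratio of excitatory neuron-like over radial glia-like cells, neither of which takes in that cluster, was -4.69 in place of -4.81 under the same naming. Only 19 intermediate progenitor-like cells were in G2/M; they held 28 mitotic UMIs, 382 CPM, which was 4.07-fold lower (2.81 to 6.13) than the 1555 CPM of radial glia-like cells in G2/M. Under that same naming the log2 ratio was -0.52 in place of -2.02. In that comparison 10 of 13 mitotic motors were at least 1.5-fold lower, against 28.8% of 7179 genes, each on 0 to 4 UMIs in the 19 cells. Among them, Kif14, Kif20b, Kif2c and Kifc1 had intervals that hold no difference, and Kif18a and Kif20a, at 0 UMIs, had only a bound. Of 10 measured axonal kinesins 2 were higher, against 18.7%, and 3 lower. The lower ones were Kif3a, Kif3b and Kif3c (2.77-fold, 1.91-fold and 1.61-fold, on 2 to 4 UMIs, each with an interval that holds no difference), and the higher ones Kif21b from 61.1 to 628 CPM (10.3-fold, 7.14 to 14.6) and Kif5c from 229 to 519 (2.27-fold).

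Among the axonal kinesins, 7 of 14 measured were at least 1.5-fold higher in excitatory neuron-like cells when set against radial glia-like ones, 3 were lower and 4 lay between (median log2 ratio 0.80; 24.1% of all genes were higher and 31.5% lower). Over all motor genes the counts were 14 higher and 20 lower of 42 measured. Kif5a, the neuron-specific heavy chain of conventional kinesin (chr10:127225696-127263348, GENCODE vM21 on GRCm38), had the largest ratio of the group. Its level was 31.9 CPM in radial glia-like, 54.9 in ganglionic eminence progenitor-like, 38.0 in intermediate progenitor-like, 132 in migrating, 214 in upper layer, 294 in deep layer, 227 in interneuron-like, 177 in striatal neuron-like, 190 in basal forebrain neuron-like and 281 in Cajal-Retzius cell-like cells. Every neuron class was above every progenitor class. Excitatory neuron-like cells held 8.35-fold more than radial glia-like cells (6.74 to 10.5; 7.57 and 9.88 in the runs).

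The other conventional kinesins differed from Kif5a. Kif5c, enriched in neurons, went from 244 CPM in radial glia-like cells to 550 in intermediate progenitor-like, 757 in migrating and 730 in excitatory neuron-like cells (2.99-fold from first to last, 2.75 to 3.25). Kif5b, the widely expressed heavy chain, stayed between 160 and 294 CPM in all neural classes, with a ratio of 0.92 in the same contrast. As shares of the UMIs of the 3 genes, Kif5a made up 6.36% in radial glia-like cells, 4.64% in intermediate progenitor-like, 11.8% in migrating and 22.1% in excitatory neuron-like cells. Kif5b made up 44.9%, 28.2%, 20.8% and 17.2%, and Kif5c 48.8%, 67.1%, 67.5% and 60.7%. Kif5c therefore took its larger share by the intermediate progenitor-like class, and Kif5a later.

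Kif21b and Kif21a, related kinesins that dampen microtubule growth, had different profiles, although both gained level between the radial glia-like and intermediate progenitor-like classes and both were lower after migration. Kif21b (chr1:136131389-136177998) stood at 68.0 CPM in radial glia-like, 124 in ganglionic eminence progenitor-like, 519 in intermediate progenitor-like, 945 in migrating, 389 in upper layer, 444 in deep layer and 382 in interneuron-like cells. The migrating class was the highest of all named classes. Over radial glia-like cells, Kif21b was 7.63-fold higher in the intermediate progenitor-like class (6.51 to 8.98), 1.82-fold higher again in migrating cells (1.68 to 1.97), and 2.22-fold lower from there to excitatory neuron-like cells (2.10 to 2.35). Kif21a (chr15:90933276-91049948) stood at 317, 471, 369 and 160 CPM in radial glia-like, intermediate progenitor-like, migrating and excitatory neuron-like cells, 1.99-fold lower at the end than in radial glia-like cells (1.80 to 2.19). The Kif21b share of the pair was 17.7%, 52.5%, 71.9% and 72.7% in that order, and 36.9% and 63.3% in ganglionic eminence progenitor-like and interneuron-like cells.

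Kif1a, the carrier of synaptic vesicle precursors, stood at 169, 210, 247 and 358 CPM in radial glia-like, intermediate progenitor-like, migrating and excitatory neuron-like cells (2.12-fold from first to last, 1.91 to 2.35). Kif1b, a close relative that also carries mitochondria, stood at 561, 522, 484 and 560 (ratio 0.999, 0.939 to 1.06). Of the kinesin-2 genes, which carry vesicles and cilium cargo, Kif3a went from 74.8 to 193 CPM (2.58-fold), Kif3c from 86.5 to 238 (2.75-fold) and Kif3b from 50.7 to 72.6 (1.43-fold, under the limit). Kifc2, a minus end motor of dendrites and axons, went from 2.83 to 13.9 CPM (4.89-fold, 2.34 to 11.8). Lower in excitatory neuron-like cells were Kif1c, a motor of many cell types, from 23.0 to 7.98 CPM (2.89-fold, 1.91 to 4.43), Kif21a, and Kif16b, an endosome motor, from 13.8 to 7.98 (1.73-fold, 1.08 to 2.78; 1.14 and 2.62 in the runs). Kif13a lay between, and Kif13b (12 UMIs in the whole matrix) and Kif17 (11 UMIs) were too rare to measure.

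The ratios of radial glia-like cells depend on how the clusters are drawn. With clusters drawn at Leiden resolution 2, the radial glia-like class had 681 cells, and its log2 ratios to excitatory neuron-like cells were 0.84 for Kif21b in place of 2.64, 1.98 for Kif5a in place of 3.06, 0.996 for Kif5c in place of 1.58, 0.96 for Kifc2 in place of 2.29, and 3.32 for Dync1i1 in place of 4.48. The directions held, and the sum over the mitotic motors was -3.78 in place of -4.81. That sum was -3.43 when the motor, partner and cycle genes were allowed to shape the clusters. The log2 ratio of Kif21b in the step to intermediate progenitor-like cells was 1.18 at resolution 2 in place of 2.93.

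**Figure D4:**
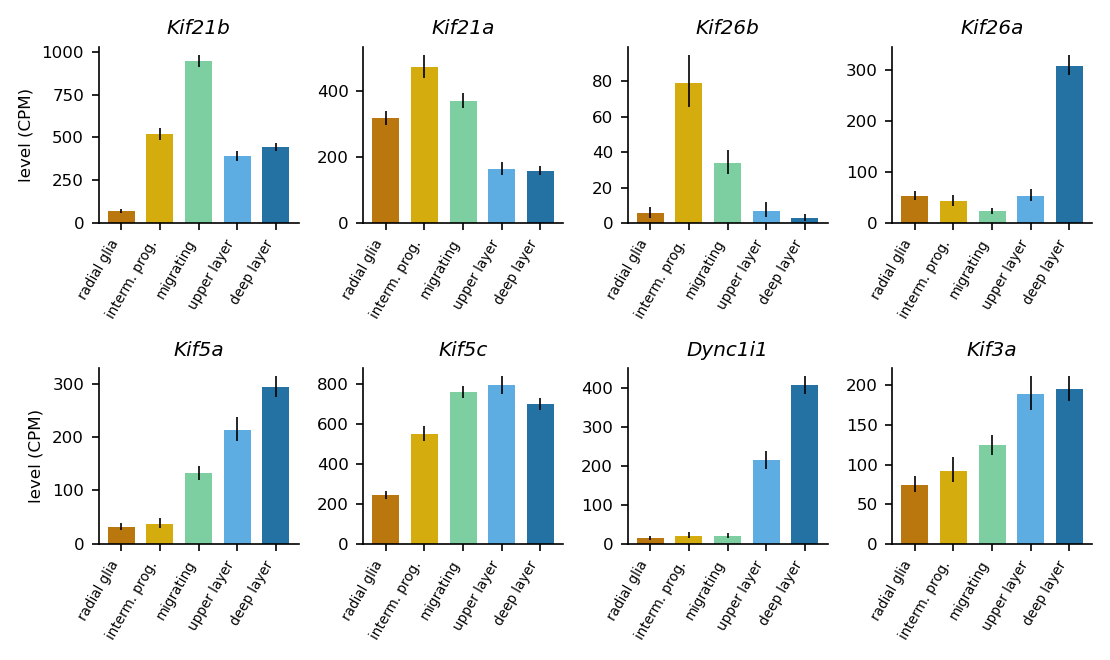
Levels of 8 motor genes, in CPM, in the 5 classes of the excitatory lineage from radial glia-like to deep layer neuron-like cells, with exact 95% Poisson intervals. Kif26b is highest in intermediate progenitor-like cells (79.3), Kif21b in migrating cells (945), and Dync1i1 and Kif26a in deep layer neuron-like cells (406 and 308).

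Step by step along this lineage, different genes stood out. From radial glia-like to intermediate progenitor-like cells, 3 motor genes of 40 measured were at least 1.5-fold higher, against 14.7% of all genes: Kif26b, Kif21b and Kif5c. From intermediate progenitor-like to migrating cells, 5 of 26 were higher (11.8% of 8835 genes) and 4 lower (15.3%). Kif5a led the first set (3.48-fold, 2.63 to 4.66), followed by Kif3c (1.97-fold), Kif21b, and the light chains Klc2 (1.79-fold) and Klc1 (1.52-fold). The lower set held Kif7 (3.21-fold), Kif26b (2.34-fold), Kif26a (1.88-fold) and Dync2h1 (1.81-fold). From migrating to excitatory neuron-like cells, 6 of 30 were higher (16.5% of 9712 genes) and 4 lower (14.1%). Dync1i1 and Kif26a led the higher set, with Kifc3 (4.70-fold), Kif5a (2.01-fold), Kifc2 (1.83-fold; 4.26 and 0.784 in the runs) and Kif3a (1.55-fold), and Kif26b (8.49-fold, 5.17 to 14.7), Kif21a (2.32-fold), Kif21b and Klc4 (2.12-fold) were lower. At Leiden resolution 0.5 the log2 ratios in the step to migrating cells were 0.05 for Kif21b in place of 0.86, 0.22 for Klc2 in place of 0.84, 0.28 for Kif26a in place of -0.91 and -4.04 for Kif26b in place of -1.23, so those of Kif21b and Klc2 no longer passed the limit and that of Kif26a changed sign. In the step to excitatory neuron-like cells at that resolution, Kif26a was at 2.39 in place of 3.28 and Kifc3 at 1.31 in place of 2.23. The shares of motor genes called in these last 2 steps lie near those of all genes.

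In the ventral lineage, 8 of 11 measured axonal kinesins were at least 1.5-fold higher in interneuron-like than in ganglionic eminence progenitor-like cells and 0 were lower (median log2 ratio 1.06; 19.8% of all genes were higher). Kif5a went from 54.9 to 227 CPM (4.14-fold, 3.29 to 5.24) and Kif21b from 124 to 382 (3.07-fold, 2.63 to 3.61). Kif5c (2.82-fold), Kif3c (2.33), Kif3a (2.17), Kif3b (2.09) and Kif1a (1.97) followed. Kif1b was 1.58-fold higher, with 1.75 and 0.784 in the runs, the latter on 33 progenitor-like cells. Kif21a, lower in the excitatory lineage, had a ratio of 1.04 here. The axonal sum was 1.92-fold higher (1.83 to 2.01).

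Of the light chains, which link conventional kinesin to cargo, Klc1 was 208 CPM in radial glia-like, 214 in intermediate progenitor-like, 325 in migrating, 410 in excitatory neuron-like, 407 in interneuron-like and 507 in striatal neuron-like cells. It was 1.97-fold higher in excitatory neuron-like than in radial glia-like cells (1.80 to 2.17) and 1.69-fold higher in interneuron-like than in ganglionic eminence progenitor-like cells (1.5 to 1.92). Klc2 went from 30.5 to 50.4 CPM (1.65-fold, 1.29 to 2.14) in the first contrast and from 21.5 to 39.6 (1.84-fold) in the second. Klc4 went the other way in the excitatory lineage, from 48.5 to 28.8 CPM (1.69-fold lower, 1.32 to 2.15), and from 39.4 to 52.6 in the ventral one. Klc3 had 42 UMIs in the whole matrix.

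Cytoplasmic dynein 1 was higher in neurons as a sum, from 833 CPM in radial glia-like to 1586 in excitatory neuron-like cells (1.90-fold, 1.82 to 2.0), with by far its largest ratio in 1 subunit. Dync1i1 (chr6:5725639-6028039), the intermediate chain long described as neuronal, stood at 15.2 CPM in radial glia-like, 17.3 in ganglionic eminence progenitor-like, 21 in intermediate progenitor-like and 21 in migrating cells. It stood at 406 (384 to 429) in deep layer, 214 (193 to 238) in upper layer, 37.4 (29.1 to 47.3) in interneuron-like, 44.5 in striatal neuron-like, 51.4 in basal forebrain neuron-like and 54.3 in Cajal-Retzius cell-like cells. Over all cells, the named deep layer and upper layer classes stood apart from the other named neuron classes, migrating cells included, and from progenitors. Unnamed clusters are not in this list. Dync1i1 was 22.3-fold higher in excitatory neuron-like than in radial glia-like cells (16.5 to 30.9; 54.4 and 12.6 in the runs), 16.1-fold higher than in migrating cells (12.6 to 21.1; 18.1 and 13.5) and 9.08-fold higher than in interneuron-like cells (7.13 to 11.7; 8.57 and 8.37). In the ventral lineage its ratio was 2.16 (1.38 to 3.46).

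Dync1i2, the widely expressed intermediate chain, went from 310 to 590 CPM (1.90-fold, 1.76 to 2.06), and was 573 in migrating and 658 in interneuron-like cells. Dync1i1 made up 4.69% of the UMIs of the pair in radial glia-like cells, 4.63% in intermediate progenitor-like and 3.55% (2.74 to 4.51) in migrating cells. In excitatory neuron-like cells it made up 36.5% (35.1 to 38.0), with 41.0% in deep layer and 26.3% in upper layer cells. The share was 29.3% when unnamed clusters with excitatory neuron as their best matching class were added, so it was lower in those clusters. Interneuron-like cells were at 5.38% (4.21 to 6.76) and striatal neuron-like cells at 5.76%. The upper layer value rests on the second run, with 30.8% there and 6.75% in the 64 cells of the first. In radial glia-like cells the share was 1.63% and 9.32% in the runs, and the second run held more excitatory neuron-like cells (647 against 414); the part of free RNA in this was not tested. Deep layer cells were at 36.6% and 45.1% in the runs.

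**Figure D5:**
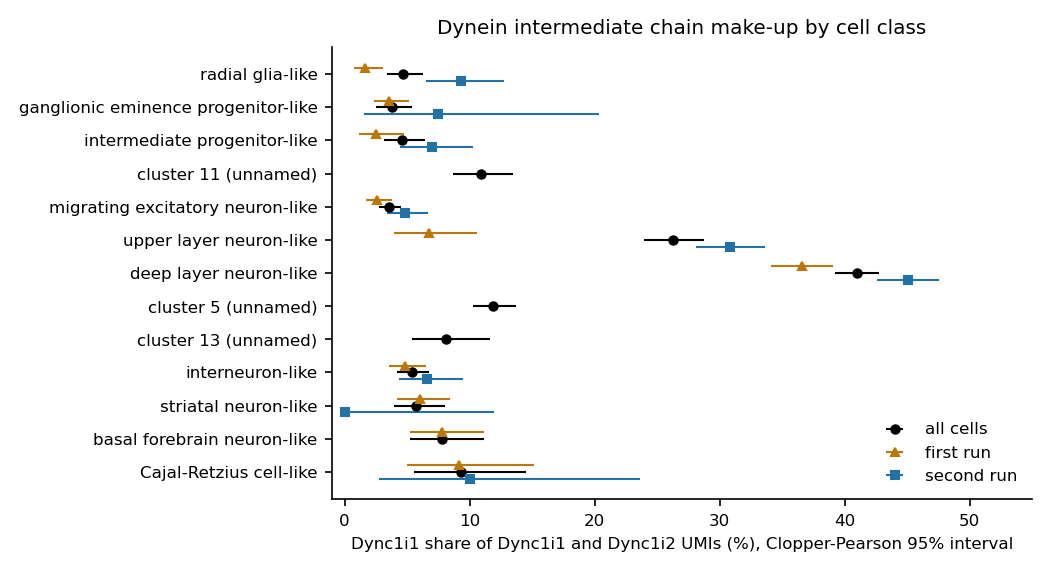
Dync1i1 as a percentage of the UMIs of Dync1i1 and Dync1i2 in each class, for all cells and for the first and second run, with Clopper-Pearson 95% intervals. Deep layer neuron-like cells reach 41.0% and upper layer neuron-like cells 26.3%, the latter with 6.75% and 30.8% in the runs, against under 10% in the other named classes for all cells.

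Among the remaining dynein subunits, the heavy chain Dync1h1, the motor itself, went from 358 to 477 CPM (1.33-fold) and the light intermediate chain Dync1li2 from 141 to 158 (1.12-fold). The other light intermediate chain, Dync1li1, went from 8.50 to 21.8 CPM (2.57-fold, 1.63 to 4.19), which took it from 5.67% to 12.1% of the pair. In the ventral lineage Dync1li1 was 3.03-fold higher (1.67 to 5.80), and it reached 12.2% of the pair in interneuron-like cells. No subunit was lower in neurons by the 1.5-fold limit in either lineage.

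Of the 7 cilium and centriole motors, 3 were measured in the excitatory lineage and all 3 were lower in its neurons (31.5% of all genes were), and 1 of 2 measured was lower in the ventral lineage (24.5%). Kif7, the kinesin of Hedgehog signalling at the cilium tip, stood at 26.9 CPM in radial glia-like, 14.3 in ganglionic eminence progenitor-like, 24.3 in intermediate progenitor-like, 7.56 in migrating, 3.78 in excitatory neuron-like and 7.05 in interneuron-like cells. It was 7.13-fold lower in excitatory neuron-like than in radial glia-like cells (4.22 to 12.7). Dync2h1, the heavy chain of the cilium dynein, went from 72.3 to 43.4 CPM (1.66-fold lower, 1.36 to 2.03), and Dync2li1, its light intermediate chain, from 34.0 to 17.0 (2.0-fold lower, 1.47 to 2.72). In the ventral lineage Dync2h1 was 1.56-fold lower (1.16 to 2.13), a log2 ratio of -0.65, which became 0.43 when clusters were drawn on a random 50% of the UMIs and values taken from the others. Kif6, Kif9, Kif24 and Kif27 had between 7 and 57 UMIs in the whole matrix and passed no minimum in these contrasts.

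Outside these groups, the kinesin-11 pair Kif26a and Kif26b, thought to lack motor activity, were highest in different classes of the excitatory lineage. Kif26b (chr1:178529125-178939200) stood at 5.31 CPM in radial glia-like, 79.3 (65.8 to 94.8) in intermediate progenitor-like, 33.9 in migrating, 6.68 in upper layer, 2.57 in deep layer, 1.79 in ganglionic eminence progenitor-like and 0.542 in interneuron-like cells. Over radial glia-like cells, Kif26b was 14.9-fold higher in the intermediate progenitor-like class (8.70 to 27.5; 19.5 and 11.2 in the runs). Kif26b ranked 12th by fold over other cells among the genes of the intermediate progenitor-like cluster (4.46-fold), which is a description of that cluster and not a test. In a migrating excitatory neuron-like cluster of 379 cells it ranked 16th, at a similar 4.28-fold on 95 UMIs. The 33.9 CPM of the migrating class pools that cluster with another of 538 cells, so the drop between the classes does not describe each migrating cluster.

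Kif26a (chr12:112146208-112181747) stood at 52.4, 42.6 and 22.7 CPM in radial glia-like, intermediate progenitor-like and migrating cells, 53.4 (42.9 to 65.8) in upper layer, 308 (289 to 328) in deep layer, 46.1 in interneuron-like and 139 in striatal neuron-like cells. Deep layer cells were the highest of all classes, and striatal neuron-like cells the next. From migrating to excitatory neuron-like cells Kif26a was 9.70-fold higher (7.6 to 12.6; 9.21 and 10.4 in the runs), and from excitatory neuron-like to interneuron-like cells 4.78-fold lower (3.83 to 6.03). Kifc3, a minus end motor, went from 2.83 CPM in radial glia-like to 21.6 in excitatory neuron-like cells (7.63-fold, 3.73 to 18.1; 6.16 and 12.3 in the runs). Kif2a, which trims microtubule ends in growing axons, went from 142 to 198 CPM (1.40-fold) and from 137 in ganglionic eminence progenitor-like to 334 in interneuron-like cells (2.44-fold, 2.10 to 2.86). Kif1bp went from 98.1 to 107 CPM.

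Excitatory neuron-like and interneuron-like cells were also set against each other. Of 29 measured motor genes, 3 were at least 1.5-fold higher in interneuron-like cells (12.2% of 9531 genes) and 3 lower (14.6%), near the shares of all genes. The higher ones were Kif23 (3.71-fold, 2.11 to 6.61, on 23 and 33 UMIs), Klc4 (1.83-fold) and Kif2a (1.68-fold, 1.52 to 1.87), and the lower ones Dync1i1, Kif26a and Kifc3 (1.53-fold, 0.990 to 2.46, so the interval holds no difference, and the direction turned with clusters drawn on 50% of the UMIs). None of 13 measured axonal kinesins passed the limit, and their sum was 1.10-fold lower in interneuron-like cells (1.06 to 1.13). Only 2 of the 13 mitotic motors passed the 50-UMI minimum here, so the counts leave out most of that group. The summed mitotic motors were higher in interneuron-like cells, with a log2 ratio of 1.25 (0.442 with clusters drawn on 50% of the UMIs).

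Genes that work with the motors, from 3 lists, were set beside them in the contrast of radial glia-like and excitatory neuron-like cells. Of 22 measured dynactin subunits and dynein regulators, 8 were higher and 4 lower (median log2 ratio 0.30), against 24.1% and 31.5% of all genes. Dctn1, the dynactin arm that binds dynein and microtubules, went from 8.15 to 20.4 CPM (2.50-fold), and the light chain Dynll2 from 161 to 318 (1.98-fold). Nde1, a dynein regulator needed in dividing progenitors, went from 216 to 5.46 CPM (39.7-fold lower), and Spdl1, which brings dynein to kinetochores, from 47.8 to 2.10 (22.8-fold lower). Of 19 kinesin adaptors, 9 were higher and 2 lower (median 0.40), led by Clstn2 from 14.5 to 156 CPM (10.7-fold) and Kidins220 from 146 to 656 (4.49-fold), with Hap1 from 68.4 to 5.46 (12.5-fold lower) and Plekhm2 (1.64-fold lower) below. Of 20 spindle and midbody partners, 19 were lower (median -4.94), led by Nusap1 (74.3-fold) and Tpx2 (55.9-fold), and Zwint was the exception at 1.14. The spindle partners thus sat where the mitotic motors did, at a median of -4.97. The adaptors, at 0.40, lay near the dynactin and dynein list at 0.30. Both lay between the axonal kinesins at 0.80 and all genes at -0.15.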

How the data were processed

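The authors deposited 1 matrix of raw UMI counts per gene and cell for all 16 samples, made with the SureCell workflow per the labels' protocols. The submitters' processing notes name the build mm10. Aligner, counter and annotation: not given in the sources used here. Every cell holds at least 1111 UMIs. Members and lists were chosen with earlier results of these data known. Values in full are given for the 2 genes of largest ratio in each direction within each role or partner list and for the subunits of each family; other genes were named after their values were seen. Counts of 5773 cells (4 with over 10% globin were set apart) were scaled to 10000 per cell and logged, and 2000 variable genes gave 30 principal components, 15 neighbours and Leiden clusters at resolution 1 (python-igraph 0.11.9, leidenalg 0.10.2, scikit-learn 1.9.0). The runs were found from where Y-linked UMIs stop in the matrix order. Clusters were named from markers raised at least 1.5-fold. Class sums gave CPM, and ratios used genes with at least 50 UMIs and exact 95% binomial intervals (SciPy 1.17.1). A class at 0 was set to 3 counts. Ratios were checked on simulated data.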

Additional observations from a re-analysis of the deposited data

Results flagged for a closer look

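Kif1b, a carrier of mitochondria and vesicle precursors, differed in direction between the 2 runs of cells. Its level in excitatory neuron-like cells was 1.13 times that in radial glia-like cells in the first run and 0.874 times in the second, and neither counting interval holds 1. The difference between the runs was not tested. Mitotic motor RNA stood at 707 CPM in the unnamed cluster of 225 cells, which belongs to no named class, against 39.5 CPM in excitatory neuron-like cells.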

How the results depend on the processing

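No paired analysis was possible because the samples share 1 matrix with no map to cells. Over 18 other settings, 212 of 262 counts of genes, 243 of 321 summed ratios, 1073 of 1231 single ratios and 120 of 156 subunit shares stayed near their value. Counts below are motor genes past the limit, against 3 higher and 13 lower for radial glia-like to intermediate progenitor-like cells (step A), 5 and 4 for intermediate progenitor-like to migrating cells (step B), 6 and 4 for migrating to excitatory neuron-like cells (step C), 3 and 3 for excitatory to interneuron-like cells (step D), 11 and 8 for radial glia-like cells without cycle RNA to G2/M (step E), and 2 and 16 for G2/M radial glia-like to G2/M intermediate progenitor-like cells (step F). At resolution 0.5, 5 were higher in A, 2 in B and 4 in F, and the Dync1i1 share in excitatory neuron-like cells was 31.0%; at resolution 2 that share was 39.7%. With 15 components, 6 were higher in A. With the lists allowed in clustering, 7 were higher and 3 lower in E and 6 lower in F. Without the 289 cells of highest doublet score, 6 were higher in A, 2 lower in E and 8 higher in F, and the share was 39.1%. With clusters from 50% of UMIs, 5 were higher in A and 2 in E, and the share in migrating cells was 4.87%. With at least 10 UMIs per gene, 5 were higher in A, 8 higher and 10 lower in B, 13 lower in C, 12 higher and 7 lower in D and 4 higher in F; with no minimum (at least 1 UMI) these were 6, 9 and 10, 13, 13 and 7, and 5. At a 2-fold limit, 1 was higher and 2 lower in B, 1 higher in D and 5 lower in E. With equal weight per cell, 5 were higher in A and 5 lower in D. In the first run, 5 were lower in D and 4 higher in F, with shares of 32.2% in excitatory neuron-like and 2.63% in migrating cells. In the second run, 12 were lower in excitatory neuron-like against radial glia-like cells (20 in all cells) and 0 in interneuron-like against ganglionic eminence progenitor-like cells (13), where 33 progenitors stand. There Kif11, on 24 and 6 UMIs, stood under the 50-UMI minimum and was not counted, though it was 17.7-fold lower. That run also gave 5 higher in A, 4 lower in E, and 4 higher and 7 lower in F, with shares of 39.3% and 4.86%. Without the 10% of cells of most UMIs, 4 were higher in F, as with a G2/M minimum of 2 UMIs, and 5 with a minimum of 5. Naming every cluster by its best class, chosen after seeing the data, gave 6 higher in A, 15 lower in B, 7 lower in C, 5 higher in D, 4 higher and 9 lower in F, and a share of 29.3%. Leaving out the low-depth radial glia-like cluster, also chosen after seeing the data, gave 5 lower in E. The log2 ratio changed sign for Kif26a in step B at resolution 0.5 (0.28), for Dync2h1 in the ventral lineage (0.43) and Kifc3 in step D (0.23) with 50% of UMIs, and for Kif1b in the ventral lineage in the second run (-0.35). The cause was not tested. The first run gave no value for step E. Depth limits genes under 50 UMIs, and intervals leave out variation between animals.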

Other observations

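Cilium motors had their highest level in the choroid plexus-like class, a ciliated epithelium, of which only 25 cells were found. The 7 genes summed to 419 CPM (316 to 546), against 141 in radial glia-like and 70.1 in excitatory neuron-like cells. Kif9, an axoneme kinesin with 57 UMIs in the whole matrix, had 14 of them in 6 of these cells, 107 CPM (58.4 to 179). Dync2li1 stood at 160 CPM (99.1 to 245) there, against 34.0 in radial glia-like cells.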
